A study of Mus musculus with 39 samples.

Results

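Genes of the cell cycle were followed in brown fat stromal vascular cells over a diet time course. They were taken as the probes whose gene symbol in the deposited table was one of a list of 40, out of 29411 symbols in all. The list holds 12 genes of DNA replication and nucleotide supply (Mcm2 to Mcm7, Cdc6, Pcna, Rrm1, Rrm2, Tyms and Tk1), 3 regulators of the step from G1 to S phase (Ccne1, Ccne2 and E2f1) and 25 genes of G2 phase and mitosis. These genes had 64 probes, of which 60 probes for 39 genes were well above background on at least 6 arrays and were tested. The one gene without a tested probe was Ttk, a kinase of the spindle checkpoint.

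Cells that divide switch these genes on in waves. Late in G1 phase the E2F factors turn on the genes for loading the MCM helicase, for the PCNA clamp that holds the polymerase on DNA, and for ribonucleotide reductase and thymidine kinase, which make the DNA building blocks. In G2 phase FOXM1 and the MYB complex turn on cyclins A and B, the Aurora and Polo kinases, the kinesins of the spindle and the ubiquitin ligase parts that end mitosis, and resting cells hold both waves low.

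The RNA came from C57BL/6J mice, a common laboratory strain, divided at weaning at 3 to 4 weeks of age. One group received a normal diet with 10% of calories from fat (LFC in the labels), and one received a high fat diet with more sucrose and 60% of calories from fat (HFC). In 3 further groups an ethno-botanical formulation, KAL-1, was added to the high fat diet at 5, 20 or 75 µg (HF5, HF20 and HF75). Each of the 39 one-colour Agilent arrays held 1 diet at 1 time label, with 10 arrays for LFC, 11 for HFC and 6 for each KAL-1 dose. LFC and HFC were measured at Day 1, 6, 10 and 14 and Week 0, which together are called early here (10 arrays), and at Week 3 to 18, called late (11 arrays, without LFC at Week 6). The KAL-1 diets were measured only from Week 3 to 18 (18 arrays). Weeks were counted from Day 14, so the labels Day 14 and Week 0, with 2 arrays each, fall on the same day. For the liver arrays of this experiment, the study's methods treat these labels as 1 time that was measured again. Age and time on the diet rose together and cannot be told apart. The labels speak of 5 animals of each group taken at an interval and do not say whether their RNA was pooled. There was no repeat of a diet under 1 time label. In the late against early fit and in the slopes, each p-value sets a difference against the spread between single arrays. Arrays of different diets under 1 time label count there as separate arrays, although time varies only between labels. In the diet comparisons the time label was a block, and the spread is what diet and label leave.

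The labels call the samples infiltrating macrophages, that is SVCs, the cells left when fat cells are removed. The macrophage genes Emr1 and Csf1r were well above background on all 39 arrays, but so were Ucp1 and Cidea of brown adipocytes and Adipoq and Plin1 of fat cells in general. In such bulk RNA, fewer cells of a type and less RNA per cell cannot be told apart. The 75th percentile of an array's signal ranged from 18.1 to 3974 intensity units with a median of 129.9, and 31.2% to 98.0% of spots were well above background. Spots marked as outliers were left out and exceeded 10% of the spots on 3 arrays, with 71.4% on HF20 Week 15, 18.6% on HF5 Week 12 and 11.1% on HFC Week 12. On the HF5, HF20 and HF75 arrays of Week 18, 16, 9 and 8 of the 39 tested genes shared one lowest value, so they have no order there. Titles of 9 arrays held BA or BAT as a word (2 early, 3 late of LFC or HFC, and 4 of KAL-1 diets). As a group these arrays differed from the rest, as given below, but not each of them did. The HF20 Week 12 array has a characteristic that names the high fat diet alone, while its title and source name give HF20.

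Promoters are shown for the genes that were lower late than early in the test described below. RefSeq held a promoter for 8 of these 11 genes and for 33 of the 40. Each sequence gives the 250 bases before the start site, 5′ to 3′ on the strand of the gene, in build GRCm38.p6. Capitals mark 3 kinds of words, on either strand. They are CCAAT, which is the box bound by NF-Y, the E2F words (TTCCCGC or TTCGCGC, and also TTGCCGC or TTGGCGC), and the cell cycle homology region, CHR, written TTTGAA or else TTCGAA. The word TTCGAA is its own reverse complement and counts on both strands. E2F words overlap each other in Mcm5, and CCAAT words overlap in Ube2c.
Mcm3 (MCM helicase), chr1:20820313-20820562 on the minus strand: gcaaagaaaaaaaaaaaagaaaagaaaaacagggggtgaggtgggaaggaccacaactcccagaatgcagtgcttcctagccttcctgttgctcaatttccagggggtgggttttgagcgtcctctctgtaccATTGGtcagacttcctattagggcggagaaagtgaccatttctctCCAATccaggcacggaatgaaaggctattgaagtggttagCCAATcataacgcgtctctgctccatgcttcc
Mcm5 (MCM helicase), chr8:75109259-75109508 on the plus strand: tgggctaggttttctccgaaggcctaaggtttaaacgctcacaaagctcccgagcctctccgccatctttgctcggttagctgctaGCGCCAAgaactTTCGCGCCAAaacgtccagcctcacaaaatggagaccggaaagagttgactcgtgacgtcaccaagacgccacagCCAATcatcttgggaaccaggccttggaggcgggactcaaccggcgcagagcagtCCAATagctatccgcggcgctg
Rrm2 (small subunit of ribonucleotide reductase), chr12:24708004-24708253 on the plus strand: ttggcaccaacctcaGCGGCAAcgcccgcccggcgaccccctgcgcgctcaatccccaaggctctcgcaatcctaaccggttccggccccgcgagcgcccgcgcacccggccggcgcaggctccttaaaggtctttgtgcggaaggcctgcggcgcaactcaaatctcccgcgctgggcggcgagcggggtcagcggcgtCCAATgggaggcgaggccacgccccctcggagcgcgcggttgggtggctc
Tk1 (thymidine kinase), chr11:117826015-117826264 on the minus strand: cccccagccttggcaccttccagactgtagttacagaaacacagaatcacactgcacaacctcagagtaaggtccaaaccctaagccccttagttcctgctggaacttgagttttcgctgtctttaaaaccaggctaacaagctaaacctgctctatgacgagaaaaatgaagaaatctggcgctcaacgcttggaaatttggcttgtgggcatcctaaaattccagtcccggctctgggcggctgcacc
Kif23 (kinesin of the midbody), chr9:61946800-61947049 on the minus strand: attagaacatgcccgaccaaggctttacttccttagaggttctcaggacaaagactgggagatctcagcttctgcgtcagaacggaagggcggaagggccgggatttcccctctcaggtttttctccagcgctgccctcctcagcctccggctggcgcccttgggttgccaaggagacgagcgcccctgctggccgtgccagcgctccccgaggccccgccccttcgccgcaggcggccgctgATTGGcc
Nusap1 (binds spindle microtubules), chr2:119618048-119618297 on the plus strand: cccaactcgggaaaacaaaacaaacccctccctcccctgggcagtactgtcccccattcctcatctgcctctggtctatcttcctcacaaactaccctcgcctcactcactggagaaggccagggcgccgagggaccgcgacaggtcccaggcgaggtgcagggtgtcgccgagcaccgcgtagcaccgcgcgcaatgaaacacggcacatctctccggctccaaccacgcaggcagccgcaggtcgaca
Ube2c (ubiquitin conjugation for cyclin destruction), chr2:164769679-164769928 on the plus strand: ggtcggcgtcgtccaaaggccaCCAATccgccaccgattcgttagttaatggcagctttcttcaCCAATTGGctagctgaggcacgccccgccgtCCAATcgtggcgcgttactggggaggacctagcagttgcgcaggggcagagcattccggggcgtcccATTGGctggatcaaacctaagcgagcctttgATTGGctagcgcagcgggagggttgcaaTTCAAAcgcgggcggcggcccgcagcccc
Bub1b (spindle checkpoint), chr2:118597961-118598210 on the plus strand: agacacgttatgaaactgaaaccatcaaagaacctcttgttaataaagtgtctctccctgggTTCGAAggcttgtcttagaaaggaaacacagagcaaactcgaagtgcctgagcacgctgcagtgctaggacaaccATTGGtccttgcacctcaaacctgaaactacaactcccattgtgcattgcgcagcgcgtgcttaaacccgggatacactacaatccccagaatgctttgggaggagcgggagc

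The CCAAT word was in 25 of the 33 promoters (75.8%) and in 34.5% of the promoters of all 27025 genes. It was in 8 of 11 replication promoters (72.7%) and in 17 of 20 mitosis promoters (85.0%). The E2F words were in 6 of 11 replication promoters (54.5%) and in 2 of 20 mitosis promoters (10.0%), against 7.97% of all. The CHR words were in 2 of 11 (18.2%) and 8 of 20 (40%), against 17.4% of all. Promoters with the word GGGCGG, the GC box bound by Sp1, were 22 of the 33 (66.7%) and 32.9% of all. CCAAT was in 6 of the 8 printed promoters (75.0%) and in 19 of the 25 promoters of the other genes (76.0%), and the Nusap1 promoter held none of the words searched. A word match is a description and shows no binding.

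Levels are given as log2 of the signal relative to the 75th percentile of the array, so they compare arrays for 1 gene and not genes with each other. In LFC and HFC, 11 of the 39 genes were lower at Week 3 to 18 than at Day 1 to Week 0 and none was higher, with an adjusted p under 0.05 over all 31713 probes (limma, 2 phases and diet). In the same test 0.965% of all probes passed, 0.845% lower and 0.12% higher. The 11 genes were 4 of 12 replication genes (Mcm3, Mcm5, Rrm2 and Tk1) and 7 of 24 mitosis genes (Tpx2, Nusap1, Ccna2, Kif20a, Kif23, Ube2c and Bub1b). The fitted difference was below 0 for all 39 genes and for 58.5% of all probes. An unadjusted p under 0.05 was reached by 27 of the 39 and by 17.4% of all probes. The median difference was -0.84 over replication genes, -1.56 over mitosis genes and -0.53 over the 3 G1/S genes, beside -0.14 over all probes.

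The count depended on a few arrays. Without the 5 arrays titled BA or BAT, 0 of the 39 genes and 1 probe passed (limma), although the medians were -0.55 for replication and -1.30 for mitosis genes and 22 genes had an unadjusted p under 0.05. With the title word as a term of the fit 10 of the 39 genes passed. Without HFC Week 12, the late array with many outlier spots, 17 passed. That array also had the lowest level of brown adipocyte genes among the late LFC and HFC arrays, as given below. No scan date held both early and late arrays, and with the date as a random block 8 of the 39 genes passed. Leaving out single time labels gave 1 gene without Day 1 or without Day 6 (Tpx2), 2 without Week 0, 4 without Week 9, 7 without Week 6 and 14 without Week 15. With quantile normalization 6 of the genes passed, and the probes past the threshold were 287 lower and 91 higher, beside 268 and 38. After normexp background correction 0 of the 39 genes and 0 probes passed, with the median of all probes at -0.44 and the medians of replication and mitosis genes at -0.70 and -0.88.

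**Figure D1:**
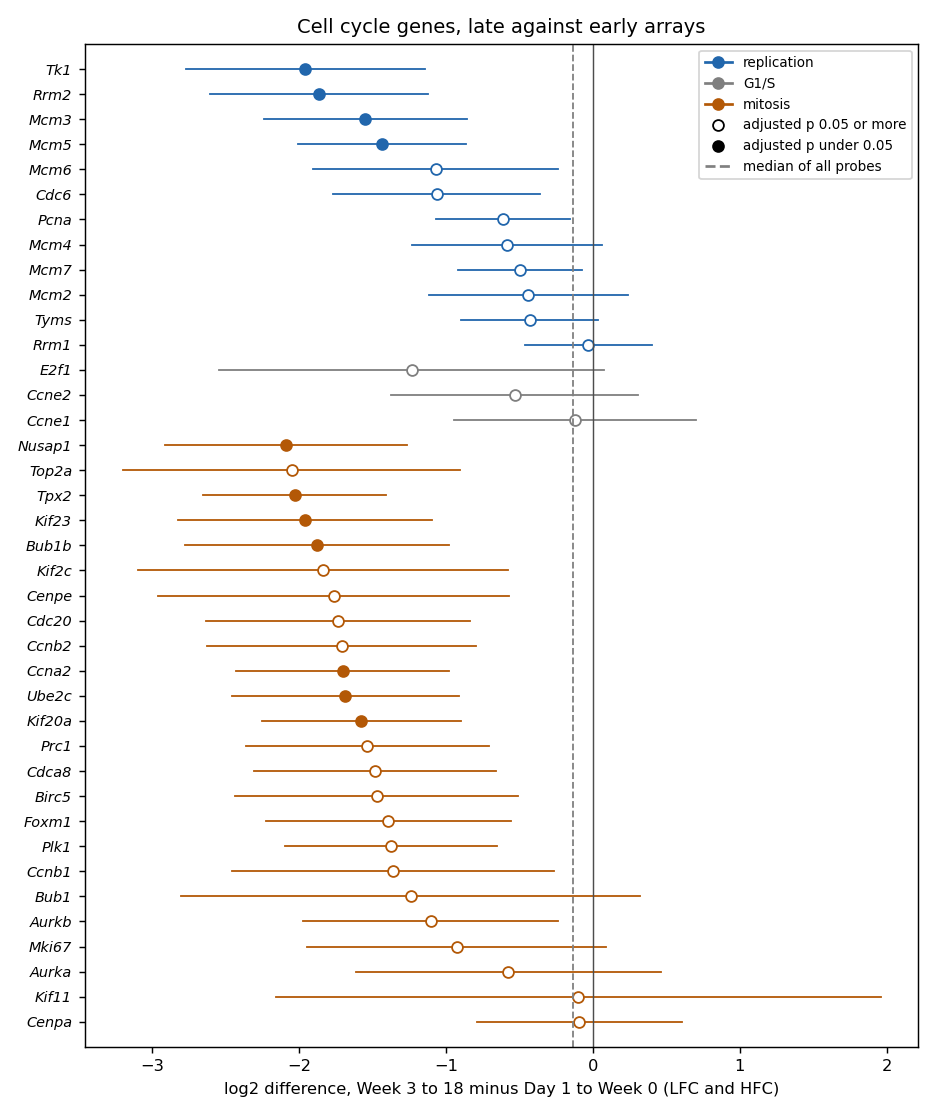
Fitted log2 difference between the late and early arrays of LFC and HFC for the 39 tested genes, with 95% confidence intervals from limma. Filled points had an adjusted p under 0.05 over all probes; all 39 points lie below 0, and the dashed line marks the median of all probes at -0.14.

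Tpx2, which activates Aurora A on the spindle, had the smallest p of the 39 genes. Its level ran from -2.19 to -1.16 with a median of -1.62 on the early arrays and from -5.04 to -2.13 with a median of -3.79 on the late arrays. Of 11 late arrays 10 were below the lowest early array, and the exception was HFC Week 12. The difference was -2.03 ± 0.30 (SE), 4.09-fold lower, with an adjusted p of 0.00688 in limma. This probe was well above background on 24 of the 39 arrays. The 4 other Tpx2 probes had differences of -1.26 to -0.89, and none of them passed. On the KAL-1 arrays all 16 measured values were below the early mean.

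Of the MCM helicase, which unwinds DNA at the fork, the Mcm5 and Mcm3 subunits were lower late. Mcm5 ran from -0.76 to 0.80 with a median of 0.39 early and from -2.03 to -0.25 with a median of -1.08 late. Again 9 of 11 late arrays were below every early array, and the difference was -1.44 ± 0.27 (adjusted p 0.0214, limma). Mcm3, at -0.85 to 0.03 early and -3.58 to -0.70 late, differed by -1.55 ± 0.33 (adjusted p 0.0336), with 8 of 10 late arrays below every early array. The other subunits did not pass. Mcm6 had a difference of -1.07, Mcm4 -0.58, Mcm7 -0.50 and Mcm2 -0.44, with 95% intervals from -1.12 to 0.24 for Mcm2 and from -1.91 to -0.24 for Mcm6. Mcm2 ran from -2.97 to -0.70 early and from -3.02 to -0.36 late, and the ranges overlapped almost entirely. Cdc6, the loader of the helicase, had -1.06 (adjusted p 0.12).

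In nucleotide supply both subunits of ribonucleotide reductase had unlike values. Rrm2, the subunit that is made anew in S phase, ran from -2.82 to -0.49 with a median of -1.65 early and from -4.60 to -2.15 with a median of -3.64 late. All 11 late arrays were below the early mean and 8 were below every early array. Its difference was -1.87 ± 0.36, 3.64-fold lower (adjusted p 0.0214), and its second probe gave -1.69 (adjusted p 0.0293). Rrm1, the large subunit with a longer life in the cell, ran from 0.02 to 1.26 early and from 0.26 to 1.47 late, with a difference of -0.03 and a 95% interval of -0.47 to 0.40. Tk1, the salvage enzyme for thymidine, was lower by 3.88-fold (-1.96 ± 0.39, adjusted p 0.0273). Tyms, which makes thymidylate, had -0.43 (adjusted p 0.326). Pcna ran from 2.94 to 4.18 early and from 2.53 to 3.87 late, with a difference of -0.61 and an adjusted p of 0.160. These intervals are those of each gene, and the differences between the genes were not tested.

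The 6 other mitosis genes passed the same test. Nusap1, at -2.64 to -0.27 early and -4.78 to -2.12 late, differed by -2.09 ± 0.40 (adjusted p 0.0214), with 6 of 10 late arrays below every early array. Ccna2, cyclin A2 of S and G2 phase, ran from -1.76 to 0.47 early and from -3.55 to -0.73 late, and differed by -1.70 ± 0.35 (adjusted p 0.0305). The kinesins of cell division Kif20a and Kif23 differed by -1.58 ± 0.33 (adjusted p 0.0312) and -1.96 ± 0.42 (0.0336). A second Kif23 probe had -1.15 and did not pass (adjusted p 0.130, limma). Ube2c and Bub1b differed by -1.68 ± 0.37 (adjusted p 0.0350) and -1.88 ± 0.43 (0.0408). For Ccna2, Kif20a, Kif23, Ube2c and Bub1b, 7 late arrays each were below every early array. Bub1b was well above background on 8 early and 3 late arrays, so its late values rest on dim spots.

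Mki67, the Ki-67 antigen, ran from -1.15 to 2.06 with a median of 1.22 early and from -1.99 to 2.07 with a median of 0.28 late. Its groups overlapped, since HFC Day 14 was as low as -1.15 and HFC Week 12 and HFC Week 15 were at 2.07 and 1.95, and the difference was -0.93 with a 95% interval of -1.95 to 0.09 (adjusted p 0.333). Top2a, the topoisomerase that untangles chromosomes, had one of the largest differences (-2.05) with a wide spread (SE 0.55, adjusted p 0.0677). It ran from -4.74 to -0.997 early, with LFC Day 6 as the lowest array, and from -6.28 to -1.95 late.

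Ccnb1, cyclin B1, ran from -2.98 to -1.34 early and from -5.12 to 0.86 late, and 9 of 11 late arrays were below every early array. The highest late value was HFC Week 3 at 0.86, and the difference of -1.36 had an adjusted p of 0.189. A second Ccnb1 probe gave -1.38 with an adjusted p of 0.0408. Cdc20, which starts the destruction of cyclin B, ran from -1.03 to 2.23 early and from -2.67 to 0.51 late, all 11 late arrays were below the early mean, and the difference of -1.73 had an adjusted p of 0.0560. Birc5 (survivin) ran from -0.88 to 2.16 early and from -2.35 to 1.30 late, with a difference of -1.47 (adjusted p 0.115). Both genes had HFC Day 14 as the lowest early array and HFC Week 12 as the highest late array.

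A further 4 mitosis genes came close to the threshold and did not pass. Plk1, Ccnb2, Prc1 and Cdca8 had differences of -1.38, -1.71, -1.53 and -1.48 with adjusted p of 0.0583, 0.0600, 0.0618 and 0.0662. At the other end Cenpa, the histone of the centromere, had -0.09 with a 95% interval of -0.79 to 0.60, and Aurka had -0.58. Kif11 was well above background on 1 early and 3 late arrays, and no fold is given for it. Its level moved over 9.48 units across the arrays, the widest range of the 39 genes. Kif2c was well above background on 6 early and 1 late array and Ttk on 3 early and 0 late arrays, and no fold is given for them either.

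The G1/S regulators did not pass. Ccne1, cyclin E1, ran from -2.04 to 0.33 early and from -2.18 to 0.79 late, with a difference of -0.12 and a 95% interval of -0.95 to 0.70. E2f1 ran from -5.47 to -0.20 early and from -5.77 to -0.44 late, with a difference of -1.23 (95% interval -2.54 to 0.08), and it was well above background on 7 early and 4 late arrays. The second E2f1 probe, well above background on 21 arrays, had -1.47 ± 0.42 (adjusted p 0.0809, limma). Ccne2 had -0.53, and its second probe 0.15. On the brightest probe of each gene, the early and late values covered almost the same range.

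**Figure D2:**
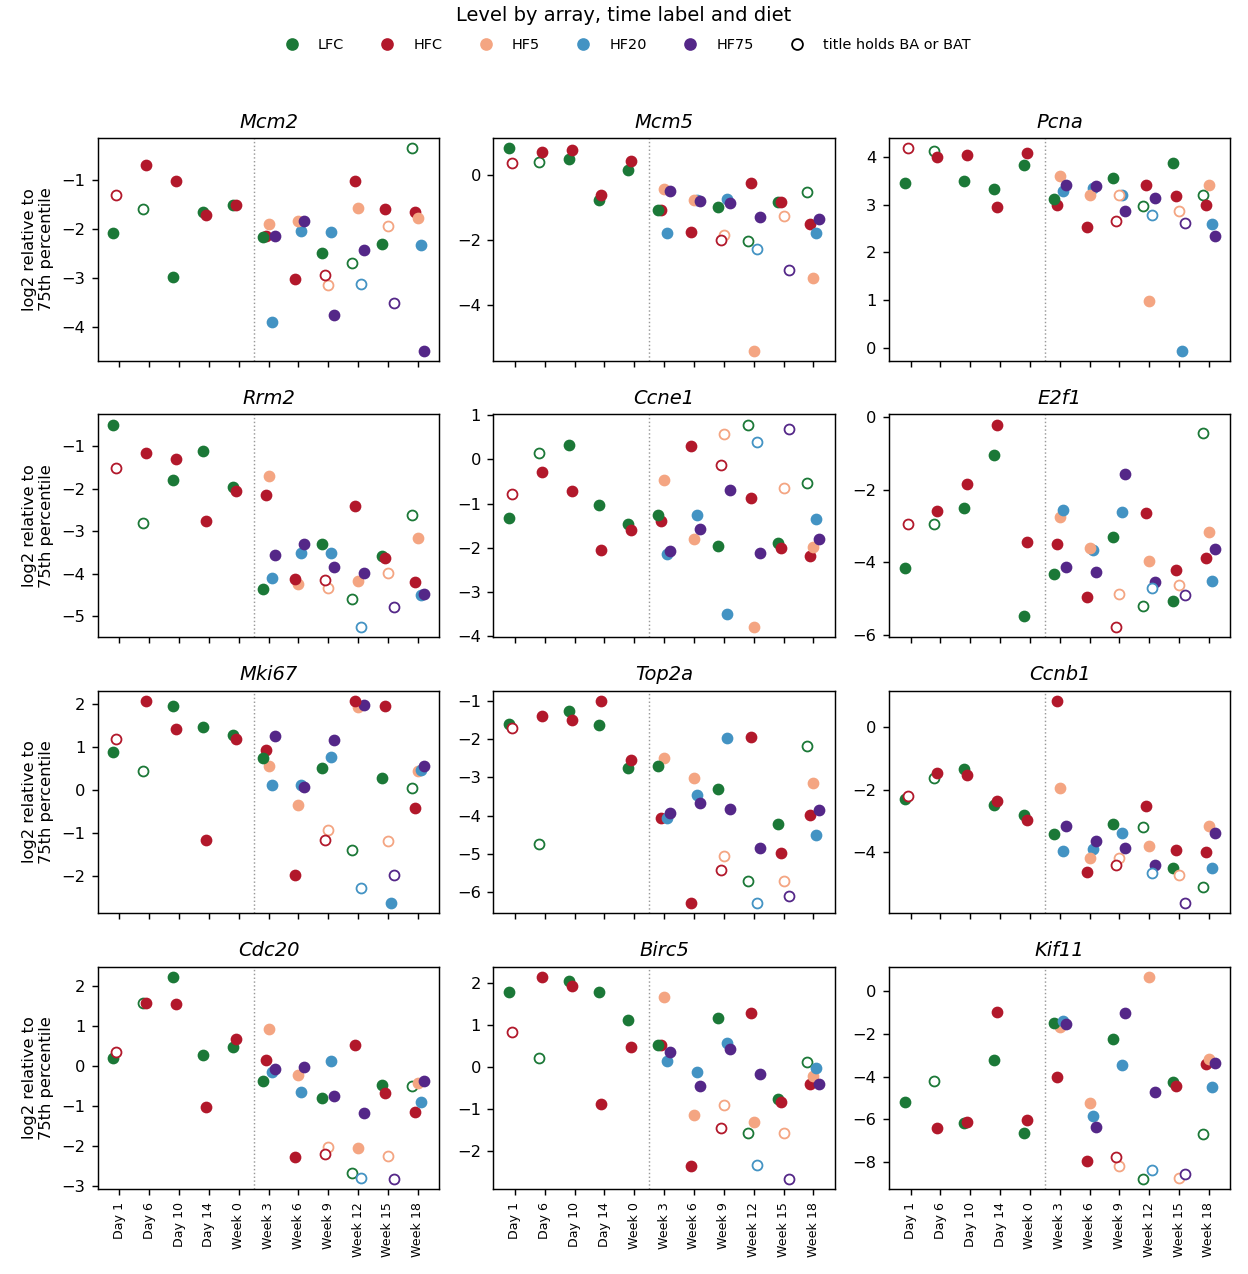
Level of 12 genes on each array (log2 relative to the 75th percentile of the array) by time label, coloured by diet, with open points for arrays titled BA or BAT and a dotted line between early and late. Rrm2 and Mcm5 step down after Week 0, Mki67 and Ccne1 overlap, and Kif11 is near background on most arrays.

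Over all probes of these genes the picture was the same in sign. Of the 60 tested probes 59 had a difference below 0 and 13 passed. Among the 21 tested probes that were not the brightest of their gene, 2 passed. For 14 of the 15 genes with more than 1 tested probe every probe was below 0, and the exception was Ccne2. No gene had all late arrays below all early arrays, which 0.0284% of all probes had.

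Each array was also described by the median, over the genes of a class, of the level minus the early mean of the gene. The replication median was 0.03 ± 0.33 (SD, n = 10) on the early arrays and -0.89 ± 0.54 (n = 11) on the late arrays, and it ran from -0.77 to 0.49 early and from -1.93 to -0.34 late. The mitosis median was 0.08 ± 0.43 early and -1.56 ± 0.90 late, and it ran from -0.45 to 0.73 early and from -2.82 to -0.0015 late. Without HFC Day 14 the lowest early replication median was -0.16, above every late array, and without HFC Week 12 the highest late mitosis median was -0.68, below every early array. Each of these arrays was picked after its value was seen, because it broke the separation. The separation without it is therefore no test. The mitosis median minus the replication median was 0.06 ± 0.32 early and -0.67 ± 0.48 late. On the 8 untitled late arrays the replication and mitosis medians were -0.69 ± 0.41 and -1.32 ± 0.85, and on the 3 titled ones -1.40 ± 0.57 and -2.19 ± 0.81. The number of genes below their early mean was 3 to 27 with a median of 20 on early arrays, 21 to 36 with a median of 35 on late arrays, and 10 to 39 with a median of 35 on the KAL-1 arrays. The lowest late count was 21 of 35 measured genes on HFC Week 12. The lowest KAL-1 count was 10 of 11 measured genes on HF20 Week 15.

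Lower medians were seen from Week 3 on. The HFC and LFC arrays of Week 0 had replication medians of -0.04 and -0.02 and mitosis medians of -0.24 and -0.11. Those labelled Day 14, the same day, had replication medians of -0.77 and -0.16 and mitosis medians of -0.40 and 0.21. The 5 arrays of Week 3 had replication medians of -0.92 to -0.21 and mitosis medians of -1.18 to 0.15, with HF5 as the highest, and LFC and HFC had mitosis medians of -1.02 and -0.96 there. Later weeks reached lower, with mitosis medians of -3.37 to -0.0015 at Week 12 and of -3.30 to -1.75 at Week 15, and those of Week 18 were -1.53 to -0.71. On HF5, HF20 and HF75 of Week 18, 16, 9 and 8 of 39 genes shared one lowest value. Low levels are cut off there, so no rise after Week 15 is read from them. The lowest mitosis medians (HF20 Week 12 and HF75 Week 15) were on arrays titled BA or BAT. The lowest replication median, -3.07 on HF20 Week 15, was on the array with 71.4% outlier spots, where 11 of the 39 genes were measured.

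**Figure D3:**
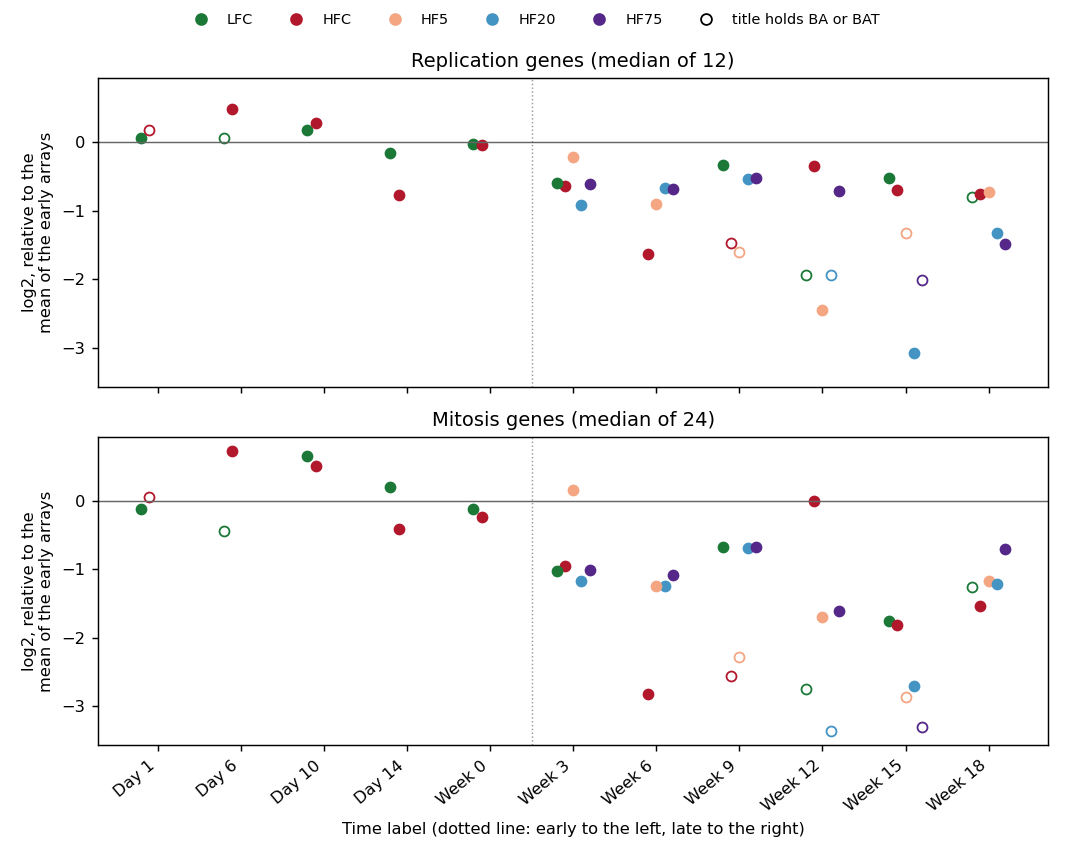
Median level of 12 replication and 24 mitosis genes on each of the 39 arrays, relative to the mean of the early arrays (log2), by time label and diet, with open points for arrays titled BA or BAT. The early arrays lie between -0.77 and 0.73, and most late arrays lie below them in both panels.

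As a slope over days in LFC and HFC, no probe passed after adjustment (limma, 0 of 31713, 0%), so none of the 39 genes did. All 39 slopes were negative, as were 61.2% of all probes. An unadjusted p under 0.05 was reached by 26 of the 39 and by 12.9% of all probes, with 8.39% negative. Per doubling of days the slopes were -0.43 ± 0.09 for Rrm2 (adjusted p 0.114), -0.32 for Mcm5, -0.41 for Tk1, -0.40 for Tpx2, -0.45 for Nusap1, -0.35 for Kif20a, -0.31 for Plk1 and -0.34 for Ccna2. The median slope was -0.18 over replication genes, -0.33 over mitosis genes and -0.04 over all probes.

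Within Week 3 to 18, over all 5 diets, 5 probes passed (0.0158%) and none of them was among these genes. Of the 39 slopes 33 were negative, beside 55.8% of all probes, and 5 genes had an unadjusted p under 0.05, beside 8.74% of all probes (5.26% with a negative slope). Aurka had -0.13 ± 0.03 per week (adjusted p 0.221), and the next mitosis genes by p were Cenpe (-0.09), Ccnb1 (-0.10), Kif20a (-0.08) and Cenpa (-0.06). Of the replication genes Mcm6 had -0.09, Mcm7 -0.04 and Mcm4 -0.06 per week. The floor values of Week 18 enter this fit, and without Week 18 or without Week 3 no probe passed (limma, 4674 and 2592 with an unadjusted p under 0.05).

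Between HFC and LFC no probe passed (limma with the time label as a block, 0 of 31706, 0%), and 980 probes (3.09%) but none of the 39 genes had an unadjusted p under 0.05. Of the 39 differences 25 were below 0, beside 46.7% of all probes, but that number was 14 without Week 9, 15 without Week 6, 15 with the Day 14 labels exchanged and 15 in the authors' table. It was 10 with the percentile over probes well above background everywhere and 34 with normexp, so no direction is read from it. The median difference was -0.07 over replication genes, -0.04 over mitosis genes, 0.05 over G1/S genes and 0.04 over all probes. The smallest p among replication genes were those of Cdc6 (0.54, 95% interval -0.17 to 1.25), Tk1 (-0.66, -1.58 to 0.25) and Mcm3 (-0.38, -1.30 to 0.54). Among mitosis genes they were those of Cenpa (0.61, -0.18 to 1.40), Ccna2 (-0.43), Cdca8 (-0.41), Ccnb1 (0.42) and Bub1 (0.80). Tk1 ran from -3.02 to 0.19 with a median of -0.68 on LFC and from -4.33 to 0.32 with a median of -2.13 on HFC, so the diets overlapped.

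The HFC minus LFC difference was also compared between late and early time labels. No probe passed (0 of 31706, 0%), and 2.61% of probes (1.83% lower) and 1 of the 39 genes had an unadjusted p under 0.05. That gene was Bub1b with -1.85 (95% interval -3.38 to -0.31, adjusted p 1.00). The medians were -0.16 for replication and -0.17 for mitosis genes, beside -0.16 for all probes. Mcm3 had -0.95 (95% interval -2.23 to 0.33), Pcna -0.50 and Mcm2 -0.58. Among mitosis genes Cenpe had 1.45, Plk1 0.96, Ccnb1 1.05 and Bub1 -1.77, none of which passed.

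The KAL-1 doses were each set against HFC in the fit of diet and time label over all 39 arrays. LFC and the early arrays thus enter these estimates as well, and the 3 comparisons share the HFC arrays. No probe passed in any of them (0% of 31706), and the unadjusted share was 1.59% for HF5 (1.19% lower), 2.83% for HF20 (1.46% lower) and 3.83% for HF75 (1.01% lower). With HF5 the median difference was -0.21 over replication genes, 0.05 over mitosis genes and -0.06 over all probes. Of 12 replication genes 11 were below 0, beside 55.1% of all probes. Of all 39 genes 22 were below 0. That number was 12 without arrays of many outlier spots and 35 without the time label as a block, so no direction is read from signs. Mcm5 had -0.98 (95% interval -2.04 to 0.07), where HF5 ran from -5.38 to -0.45 with a median of -1.56. Its lowest value came from HF5 Week 12 with 18.6% outlier spots. Mcm6 had -0.70 and Mcm7 -0.27, and without the arrays of many outlier spots the Mcm7 value was 0.06. Bub1b had 1.03 (-0.06 to 2.11), Kif23 0.75, Plk1 -0.40 and Cenpa -0.44.

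With HF20 the medians were -0.53 for replication, -0.07 for mitosis genes and -0.06 for all probes, and 9 of 12 replication genes were below 0, beside 54.1% of all probes. Of all 39 genes 23 were below 0, but 13 with normexp and 37 without the time label as a block. No direction is read from these signs. Rrm1 had -0.72 (95% interval -1.52 to 0.07), Mcm2 -0.81 (-1.83 to 0.21) and Rrm2 -0.72 (-1.75 to 0.32). The 5 measured Mcm2 values on HF20 were -3.89, -2.03, -2.05, -3.12 and -2.32 at Week 3, 6, 9, 12 and 18, and HFC ran from -3.02 to -0.70, so the diets overlapped. Ccnb1 had -1.01 (-2.12 to 0.11), Plk1 -0.60, Mki67 -0.68, Bub1 1.04 and Aurka -0.41. After normexp background correction Mcm2, Rrm2 and Ccnb1 were above 0 in this comparison. On HF20 Rrm1 ran from -2.06 to 0.95 with a median of 0.30, and its lowest value was that of Week 15.

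With HF75 the medians were -0.14 for replication, 0.19 for mitosis genes and 0.01 for all probes. Of 12 replication genes 10 were below 0, beside 49.1% of all probes. Of all 39 genes 20 were below 0, but 7 with normexp and 36 without the time label as a block. Here too no direction is read from signs. Of the 39 genes 2 had an unadjusted p under 0.05. They were Mcm2 with -1.14 (95% interval -2.10 to -0.18, adjusted p 1.00) and Prc1, which bundles microtubules of the midzone, with 1.40 (0.04 to 2.76). HF75 ran from -4.47 to -1.84 with a median of -2.97 for Mcm2 and from -3.03 to 2.64 with a median of 0.01 for Prc1, and both ranges overlapped HFC. The lowest Mcm2 value was the floor of the Week 18 array, and after normexp the Mcm2 difference was 0.29. Tk1 had 0.85, Rrm2 -0.47, Bub1 1.88, Ccnb1 -0.74, Nusap1 0.73 and Cenpe 0.71. No order of the doses was tested.

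**Figure D4:**
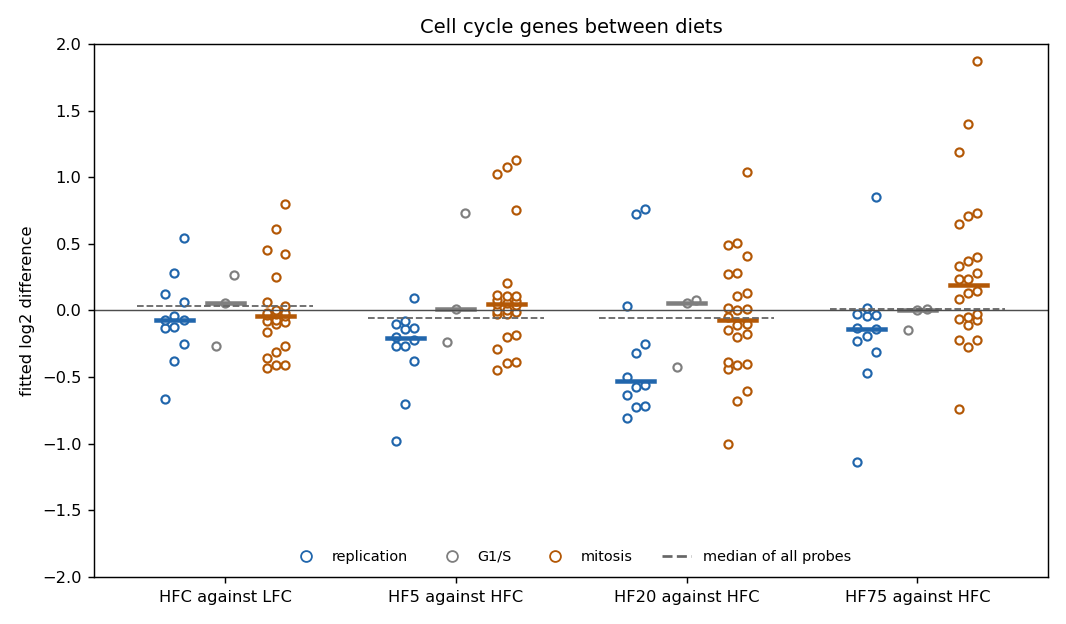
Fitted log2 difference of each tested gene in the 4 diet comparisons, by class, with the class median as a bar and the median of all probes as a dashed line. No gene passed after adjustment, and the points scatter on both sides of 0 in each comparison; the 3 comparisons of KAL-1 doses share the HFC arrays.

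The SD within the early arrays had a median of 0.48 over replication, 0.86 over mitosis and 1.04 over G1/S genes, and within the late arrays of 0.83, 1.07 and 1.01. The smallest range over the 39 arrays was that of Tyms, 2.09 units.

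Genes of the same processes outside the list were read in the same test of late against early, where 0.845% of all probes passed as lower. The dependence of that test on the titled arrays, given above, holds here as well. Of 30 other replication genes 3 were lower late and none was higher, with a median of -0.79. Named after their values were seen, they were Mcm10 (-1.22), the flap nuclease Fen1 (-1.23) and Pola2 of the polymerase and primase (-1.63). Of 37 other mitosis genes 7 were lower and none was higher, with a median of -1.09. They included the kinase Pbk (-2.28), the kinesin Kif4 (-2.26), the condensin part Ncaph (-2.16), the kinetochore genes Nuf2 (-2.02) and Spc24 (-1.86) and the cohesin factor Cdca5 (-2.01). Of 22 cyclins, kinases and inhibitors of G1 phase none passed, with a median of -0.39 and the smallest p for Rbl1 (-1.09, adjusted p 0.0543). Over days Ncaph had -0.46 and Kif4 -0.43 per doubling, neither of which passed.

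Markers of other cells moved as well between early and late, in a test where 58.5% of all probes were below 0. Of 8 skeletal muscle genes all had a difference above 0, with a median of 2.53 and Tnnt3 at 3.10 (adjusted p 0.0555), followed by Myh1 (2.64) and Myh4 (3.64), and their summed linear level ran from 5.44 to 81.1 times the 75th percentile early and from 3.60 to 472 late. Of 8 brown adipocyte genes all were above 0 (median 0.94, summed level 9.65 to 504 early and 3.07 to 1011 late). The lowest of these levels were those of LFC Day 10 early (9.65) and HFC Week 12 late (3.07). HFC Week 12 also had the highest late macrophage level (101) and the lowest late skeletal muscle level (3.60). The mitosis medians of LFC Day 10 and HFC Week 12 were 0.66 and -0.0015. The part of cell content in these 2 arrays was not tested. All 9 endothelial genes (median -1.31, summed level 119.5 to 545 early and 30.4 to 349 late) and all 7 erythroid genes (median -1.57, 297 to 2917 and 56.3 to 4471) were below 0. Of 10 neutrophil genes 9 were below 0 (median -1.33, 12.9 to 171 and 1.47 to 1243), and Mpo, which immature myeloid cells make, was the one marker that passed (-1.95, adjusted p 0.0217). The 14 macrophage genes had a median of -0.40, and none passed (16.3 to 55.5 and 8.06 to 101). General adipocyte, T cell, B cell and fibroblast lists had medians of 0.63, -0.51, -0.44 and -0.03, with none passed. The part of these cells in the cell cycle values was not tested.

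**Figure D5:**
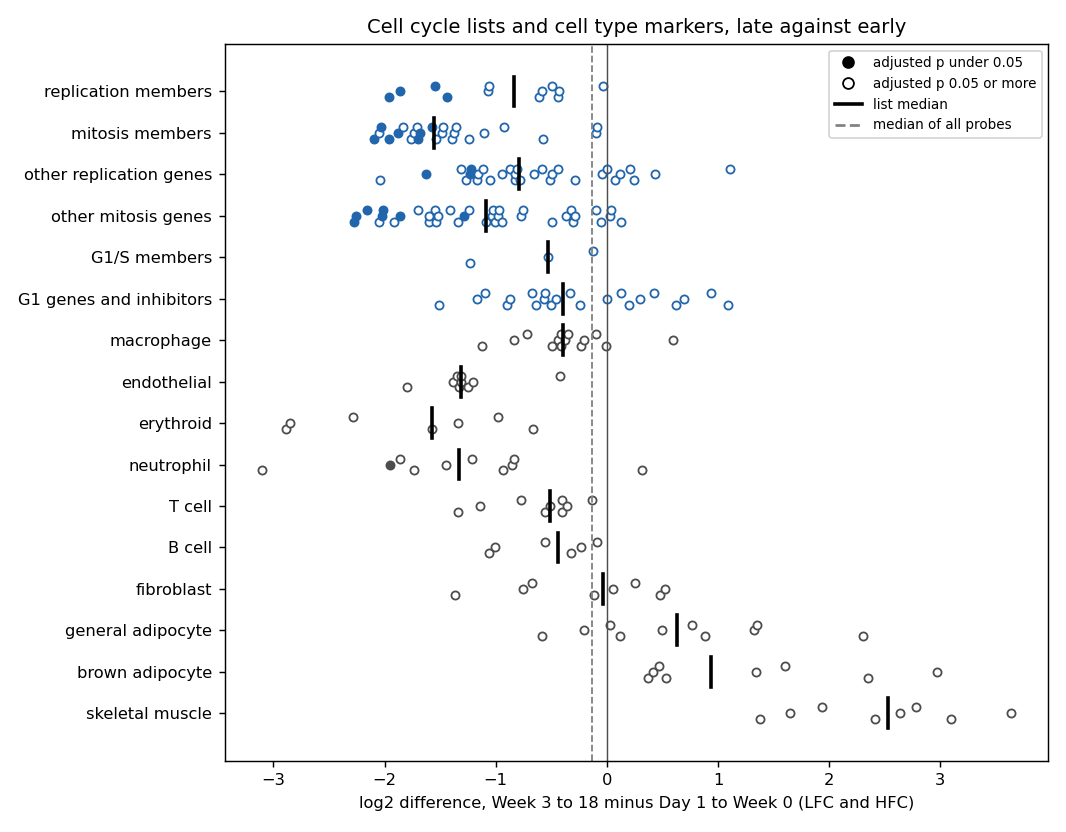
Fitted log2 difference late minus early in LFC and HFC for each gene of the cell cycle lists (blue) and of cell type markers (grey), with the list median as a black bar. Filled points had an adjusted p under 0.05; the mitosis lists lie at -1.56 and -1.09, skeletal muscle at 2.53 and macrophage at -0.40.

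Arrays titled BA or BAT differed from the others over much of the array. With diet and time label in the fit, 50.4% of all probes passed, and 20 of the 39 genes (51.3%) did, which is close to that background. Of these 19 were lower, beside 28.4% of all probes, and Ccne1 was higher by 1.88 ± 0.39 (adjusted p 0.000549). Mitosis genes gave 17 of 24 lower, with a median of -1.37, and replication genes 2 of 12 (Tk1 and Mcm6), with a median of -0.45, beside -0.16 for all probes. Among them were Bub1 (-2.91), Foxm1 (-1.95), Kif23 (-1.87) and Mki67 (-1.81), and no size is given for Kif11 and Kif2c, which were not well above background on most arrays. In the same fit 10 of 10 neutrophil and 9 of 14 macrophage genes were lower and 7 of 10 general adipocyte genes were higher, while 1 of that list, Fabp4, was lower (-2.36, adjusted p 0.000923). The word did not split single arrays cleanly. The early titled arrays HFC Day 1 and LFC Day 6 had replication medians of 0.18 and 0.07 and mitosis medians of 0.06 and -0.45, within the early range. The untitled HFC Week 6 had medians of -1.63 and -2.82. Whether the word marks another preparation is not stated in the sources used here.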

How the data were processed

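Expression was measured on 39 one-colour Agilent arrays. Per the file headers each scanner file gives a processed signal, a background-corrected intensity for each spot, made with Agilent Feature Extraction; version 9.1 is named in the submitters' processing notes. The authors also deposited a series table of log2 values, in which, at each time label with both LFC and HFC arrays, one of these diets is set to 0. At Day 14 that diet is HFC and at the others LFC, so the table served only for gene symbols and as an alternative. The study's methods describe liver arrays of the same diet experiment, normalized in GeneSpring GX, and count weeks from Day 14.

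The log2 intensity was taken minus the 75th percentile of the array. Outlier-flagged spots were left out, spots of a probe were averaged, and a gene was read from its brightest probe. Of 40628 probes, 31713 that were well above background on at least 6 arrays were tested. Diets were compared in limma 3.58.1 (R 4.3.3, statmod 1.5.0) with the time label as a block over all 39 arrays, and time in LFC and HFC with diet as a term. Benjamini-Hochberg adjustment ran over all probes tested, with a threshold of 0.05, and all tests were two-sided. In the interaction and the diet fits 31706 probes could be estimated. Scores over a class of genes carry no test. Fits were tested on simulated data.

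Besides the genes that passed, the text names the 3 replication and 5 mitosis genes with the smallest p where fewer than 3 passed, a set of 12 genes with values by array, and up to 6 genes of the other cell cycle lists. The genes and lists were chosen with earlier results of these data known. Motif words were searched in 250 bases before RefSeq starts. The number of arrays limits the precision. Alternatives were quantile normalization, normexp (offset 50), other percentiles and filters, array weights, scan date or slide as a random block, and leaving out arrays or time labels. The title word as a term, the exchange of the Day 14 labels and the fit of time over all 39 arrays were chosen after seeing the data. Python 3.11.15 with pandas 2.3.3, numpy 2.4.6 and matplotlib 3.10.9 was used for promoters and plots.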

Additional observations from a re-analysis of the deposited data

Results flagged for a closer look

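Of 56 groups of 4 to 10 arrays that were examined, 8 had one array far from the others, measured by its gap to the nearest array over the range of the group. Chance gives such a gap in about 1 in 20 groups. The groups share arrays and are not independent, so no excess over that rate is read from the 8. Pcna was at 0.97 on HF5 Week 12, where the nearest HF5 array was at 2.86, and at -0.067 on HF20 Week 15, where the nearest HF20 array was at 2.59. These 2 arrays had 18.6% and 71.4% outlier spots. Birc5 was at -2.34 on HF20 Week 12 and at -2.67 on HF75 Week 15, with the nearest arrays at -0.11 and -0.45. Mcm5 was at -2.93 on HF75 Week 15, with the nearest array at -1.37, and Mcm2 was at -3.14 on HF5 Week 9, with the nearest at -1.94. The mitosis median was -3.30 on HF75 Week 15, with the nearest HF75 array at -1.61, and the replication median was -1.93 on LFC Week 12, with the nearest LFC array at -0.80. Apart from the Pcna values, all of these were on arrays titled BA or BAT, and the part of the title was not tested for these single values.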

How the results depend on the processing

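The number of genes past the threshold in late against early depended on few arrays. The numbers of these genes and of all probes past the threshold were 11 and 306. They were 6 and 378 with quantile normalization, 0 and 0 with normexp, 17 and 833 with the percentile over probes well above background everywhere, 5 and 71 without a filter, 15 and 671 with a stricter filter, 0 and 1 without the titled arrays, 17 and 411 without arrays of many outlier spots, 22 and 1483 with array weights, 8 and 148 with scan date as a block, and 8 and 184 over all 39 arrays. Leaving out 1 time label gave 1 to 14 genes and 7 to 897 probes. The replication and mitosis medians were below 0 in all of these. The mitosis minus replication difference of -0.73 was -0.22 with normexp.

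Between HFC and LFC the 0 probes became 2 with quantile normalization, 1 with the other percentile, 2 without titled arrays, 1 without arrays of many outlier spots, 1 without HF20 Week 12, 33 with array weights, 4 with the title word as a term and 0 to 7 without 1 time label. For HF75 they were 3 without titled arrays and 1 with the title word. Over days they were 4 with quantile normalization, 5 with the stricter filter, 220 (9 of these genes) with weights, 12 with the title word and 0 to 1 without 1 time label. Over weeks the 5 probes became 17 with quantile normalization, 0 with normexp, 1 with the other percentile, 3 without a filter, 1 with gene means, 743, 710 and 966 without titled arrays, with weights and with the title word (1 of these genes each), and 0 to 10 without 1 time label. For the title word, 9 genes passed with quantile normalization, 36 genes and 26118 probes with normexp, 24411 probes without a filter, and 13 to 25 genes and 9615 to 18123 probes without 1 time label.

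Signs turned only among values that had not passed. In HFC against LFC these were Ccnb1 (-0.022 with quantile normalization, -0.37 with normexp), Cdc6 (-0.29) and Cenpa (-0.038) with normexp, Mcm3 (0.11 with weights, 0.020 in the authors' table) and Cdca8 (0.050 with the Day 14 labels exchanged). In HF5 they were Mcm7 and Cenpa (0.064 and 0.12 without arrays of many outlier spots, 0.33 and 0.33 with weights, and -0.44 to 0.069 and -0.63 to 0.15 without 1 time label, highest without Week 12). In HF20 they were, with normexp, Mcm2 (0.12), Rrm2 (0.21), Ccnb1 (0.29), Plk1 (0.084) and Aurka (0.047), and Mki67 (0.080 without arrays of many outlier spots, and -1.16 to 0.036 without 1 time label, highest without Week 15). In HF75 they were Mcm2 (0.29), Rrm2 (0.57) and Ccnb1 (0.57) with normexp, and Ccnb1 with gene means (0.035). Ccnb1 over weeks was 0.0040 with gene means, and Mcm2 in the interaction was 0.35 with normexp. The cause was not tested.

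Without the time label as a replicate block, 0 probes passed in HFC against LFC, as with it, and the medians were -0.10 for replication and -0.11 for mitosis genes. There and in the methods' t-test, Kif23 in HF5 was -0.13, and Tk1, Nusap1 and Cenpe in HF75 were -0.038, -0.51 and -0.092. The block pairs arrays by time label, since the labels give no replicate numbers. Dim probes limit Kif11, Kif2c, Bub1b and Ttk.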
